A study of Mus musculus with 9 samples.

Results

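The genes described here are 39 genes of the unfolded protein response (UPR) and the integrated stress response (ISR), measured by RNA-seq in RAW264.7 cells. They were taken as the rows of the deposited table whose Ensembl identifier carries one of 39 listed symbols in GENCODE M21, and all 39 were found among 28137 rows. RAW264.7 is a mouse monocyte and macrophage line from a virus-induced leukemia, and all 9 libraries come from this line. Cells were transfected with NC siRNA (a control siRNA), SFRP2 siRNA or RAB6A siRNA, with 3 libraries in each group. Per the labels, all 3 groups received 60 nM siRNA for 6 hours, fresh medium for 12 hours and then 100 ng/ml lipopolysaccharide (LPS) for 24 hours. The study's methods also name interferon gamma and differ from the labels in siRNA dose, transfection reagent and medium. There were no libraries of cells without LPS or without siRNA, so levels at rest were not analysed here. The SFRP2 libraries are titled siRNA-1 to siRNA-3, and the study's supplement lists 3 siRNAs under IDs with the same names. Whether each library received a different siRNA or a mixture is not stated, nor whether the libraries of a group came from separate cultures. All p-values therefore measure the spread between these libraries, which may be technical.

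Proteins that enter the secretory pathway are folded in the endoplasmic reticulum (ER) by chaperones, and unfolded protein there is sensed by the membrane proteins ATF6, IRE1 (gene Ern1) and PERK (gene Eif2ak3). IRE1 splices the mRNA of XBP1, ATF6 is cut to a free transcription factor, and PERK phosphorylates the translation initiation factor eIF2. PERK shares this last step with other eIF2 kinases, and phosphorylated eIF2 lowers general translation while favoring translation of Atf4 mRNA, the core of the ISR. ATF4 and its partners act on genes of amino acid supply, and DDIT3 (CHOP) is a later factor linked to cell death. Activated macrophages use parts of the UPR in cytokine secretion. RAB6A, the target of one siRNA, is a small GTPase of traffic between the Golgi and the ER, and SFRP2 is a secreted modulator of Wnt signaling. RNA levels of Atf4, Xbp1 and Atf6 do not report translation, splicing or cleavage of their products, none of which was measured.

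Promoter sequences of the genes are shown first, since the UPR and the ISR are known to act through short DNA elements. RefSeq promoters (GRCm38.p6), each 300 bases long with 250 bases before the start site, were found for 36 of the 39 genes as 41 promoters. Atf6, Hyou1 and Manf were not matched. Both strands were searched for the ER stress response element (ERSE, CCAAT, then 9 bases, then CCACG), ERSE-II (ATTGG, 1 base, CCACG), the UPR element TGACGTGG and the C/EBP-ATF response element (CARE, TGATGNAA). ERSE was in 8 of the 36 genes (22.2%) and in 37 of all 27025 genes of the promoter table (0.137%, the 8 included). CARE was in 6 of the 36 (16.7%) against 1219 of all genes (4.51%), ERSE-II was in 1 (Herpud1) against 12 (0.0444%), and the UPR element was in 0 of the 36 against 193 (0.714%). These are matches of letters in a window, with no measurement of binding. No window held overlapping matches of ERSE and ERSE-II.

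The 3 ERSE promoters and the 3 CARE promoters printed here belong to the genes of each class with the largest change under RAB6A siRNA, given further down. Capitals mark the element and the other bases are in lower case, all written 5′ to 3′ along the gene. The ERSE promoters are those of the chaperone Hspa5 (chr2:34771840-34772139, plus strand), the lectin chaperone Canx (chr11:50325624-50325923, minus strand) and the ubiquitin ligase Syvn1 (chr19:6046326-6046625, plus strand). The first base of the element lies at -65, -145 and -44 from the start site.
Hspa5: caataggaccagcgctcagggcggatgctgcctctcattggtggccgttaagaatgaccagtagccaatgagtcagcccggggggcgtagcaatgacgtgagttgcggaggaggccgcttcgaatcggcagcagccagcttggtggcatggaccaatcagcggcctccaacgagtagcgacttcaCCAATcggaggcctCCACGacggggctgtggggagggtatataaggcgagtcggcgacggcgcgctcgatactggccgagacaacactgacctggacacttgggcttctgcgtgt
Canx: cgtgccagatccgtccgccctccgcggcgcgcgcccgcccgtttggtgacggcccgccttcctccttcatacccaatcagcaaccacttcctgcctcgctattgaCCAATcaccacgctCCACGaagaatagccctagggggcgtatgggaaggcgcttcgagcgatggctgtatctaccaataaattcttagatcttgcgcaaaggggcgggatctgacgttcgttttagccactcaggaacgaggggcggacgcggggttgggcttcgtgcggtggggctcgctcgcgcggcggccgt
Syvn1: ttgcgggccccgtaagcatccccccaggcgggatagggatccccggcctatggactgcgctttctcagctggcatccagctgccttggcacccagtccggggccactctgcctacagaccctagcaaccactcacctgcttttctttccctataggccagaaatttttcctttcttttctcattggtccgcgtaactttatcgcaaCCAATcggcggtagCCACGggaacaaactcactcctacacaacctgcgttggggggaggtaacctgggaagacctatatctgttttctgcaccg

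The CARE promoters are those of Chac1 (chr2:119350992-119351291, plus strand), Herpud1 (chr8:94386179-94386478, plus strand) and Nupr1 (chr7:126625421-126625720, minus strand). CARE is on the opposite strand in all 3, with its first base at -193, -112 and -110, and the Herpud1 promoter holds ERSE-II as well, at -52. The window of Nupr1 lies inside the gene as GENCODE M21 draws it, since the RefSeq start used here is not the outermost one.
Chac1: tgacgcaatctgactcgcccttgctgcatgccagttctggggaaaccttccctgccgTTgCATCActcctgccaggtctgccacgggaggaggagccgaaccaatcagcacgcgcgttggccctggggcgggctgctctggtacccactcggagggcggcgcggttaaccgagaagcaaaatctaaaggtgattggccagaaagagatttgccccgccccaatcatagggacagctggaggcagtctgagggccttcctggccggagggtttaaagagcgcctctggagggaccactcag
Herpud1: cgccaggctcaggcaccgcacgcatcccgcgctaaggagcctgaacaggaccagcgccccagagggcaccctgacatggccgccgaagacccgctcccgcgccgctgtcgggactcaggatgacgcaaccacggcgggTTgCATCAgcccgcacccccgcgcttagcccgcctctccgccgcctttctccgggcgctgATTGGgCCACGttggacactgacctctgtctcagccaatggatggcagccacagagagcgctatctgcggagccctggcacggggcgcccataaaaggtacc
Nupr1: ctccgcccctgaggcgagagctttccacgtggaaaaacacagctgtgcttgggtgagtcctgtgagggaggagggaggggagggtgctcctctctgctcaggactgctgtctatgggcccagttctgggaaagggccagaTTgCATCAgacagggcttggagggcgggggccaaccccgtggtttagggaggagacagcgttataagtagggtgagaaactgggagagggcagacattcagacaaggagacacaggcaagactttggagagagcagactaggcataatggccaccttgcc

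Library sizes behind the values ranged from 32758729 to 47149258 reads. Values are given in FPKM, read counts scaled to exon length and to the reads mapped in each library, which allows comparison between genes. A bulk FPKM is a share of the RNA of all cells, so fewer cells with a transcript and less transcript per cell cannot be told apart. Of the targeted genes, Rab6a was at 24.3, 27.3 and 25.5 FPKM in NC libraries and at 21.2, 20.7 and 20.4 FPKM in RAB6A siRNA libraries. The RAB6A libraries were all below the NC libraries, a fall by 0.31 ± 0.06 (SE) on the log2 scale (adjusted p = 0.00240 in limma), and 73.3% of the genes tested changed by more than Rab6a did. Sfrp2 was at 2 reads in each NC library and at 2 to 4 reads in the SFRP2 siRNA libraries, so its silencing was not detectable at this depth. All 8 macrophage markers and all 5 LPS response genes of the marker lists were above 0 in every library. Markers of other cells were low, with summed levels of at most 2.28 FPKM (fibroblast), 0.589 FPKM (endothelial), 0.361 FPKM (epithelial) and 0.0572 FPKM (lymphocyte, 2 of 4 genes in the table). The summed level of the LPS response genes Nos2, Tnf, Il6, Il1b and Acod1 was 3861 to 4104 FPKM in NC, 3639.6 to 3779 FPKM in SFRP2 siRNA and 1739 to 1747 FPKM in RAB6A siRNA libraries. The summed level of the macrophage markers was 2961 to 3255, 2611 to 2874 and 2035 to 2184 FPKM in the same order. Single genes differed in direction between NC and RAB6A siRNA means. Acod1 (2458 to 624 FPKM), Tnf (1050 to 659) and Il6 (95.9 to 49.8) were lower. Nos2 (340 to 392) and Il1b (15.0 to 17.4) were higher. Of the macrophage markers, Cd68 (1850 to 1682) and Lyz2 (872 to 214) were lower. So were Spi1 (130 to 62.9), Csf1r (73.6 to 27.0) and Fcgr1 (66.6 to 39.9). Ptprc (18.3 to 20.6), Itgam (23.1 to 24.7) and Adgre1 (56.31 to 56.33) were not. Both sums moved with RAB6A siRNA together with the stress genes below, and their part in those changes was not tested.

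In NC libraries the 39 genes had very different levels. Calr, a calcium-binding lectin chaperone of the ER lumen, was highest at 701 ± 12.3 FPKM (SD, n = 3), followed by Hspa5 (BiP, the main ER HSP70) at 260.4 ± 6.18 and the disulfide isomerase Pdia3 at 253 ± 14.4. Hspa5 and Pdia3 were closer to each other than the spread of Pdia3. Atf4 came next at 177 ± 1.13 FPKM and Hsp90b1, the ER HSP90, at 168 ± 15.0, again within the spread of the latter. At the other end were the stress sensors Ern1 at 2.80 ± 0.127 and Eif2ak3 at 1.86 ± 0.161 FPKM, the mTORC1 inhibitor Ddit4 at 2.39 ± 0.433, the secreted stress cytokine Gdf15 at 0.213 ± 0.0684 and the lipoprotein receptor Vldlr at 0.0814 ± 0.0352 FPKM. Gdf15 rested on 11 to 22 reads in the NC libraries and Vldlr on 22 to 50.

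**Figure D1:**
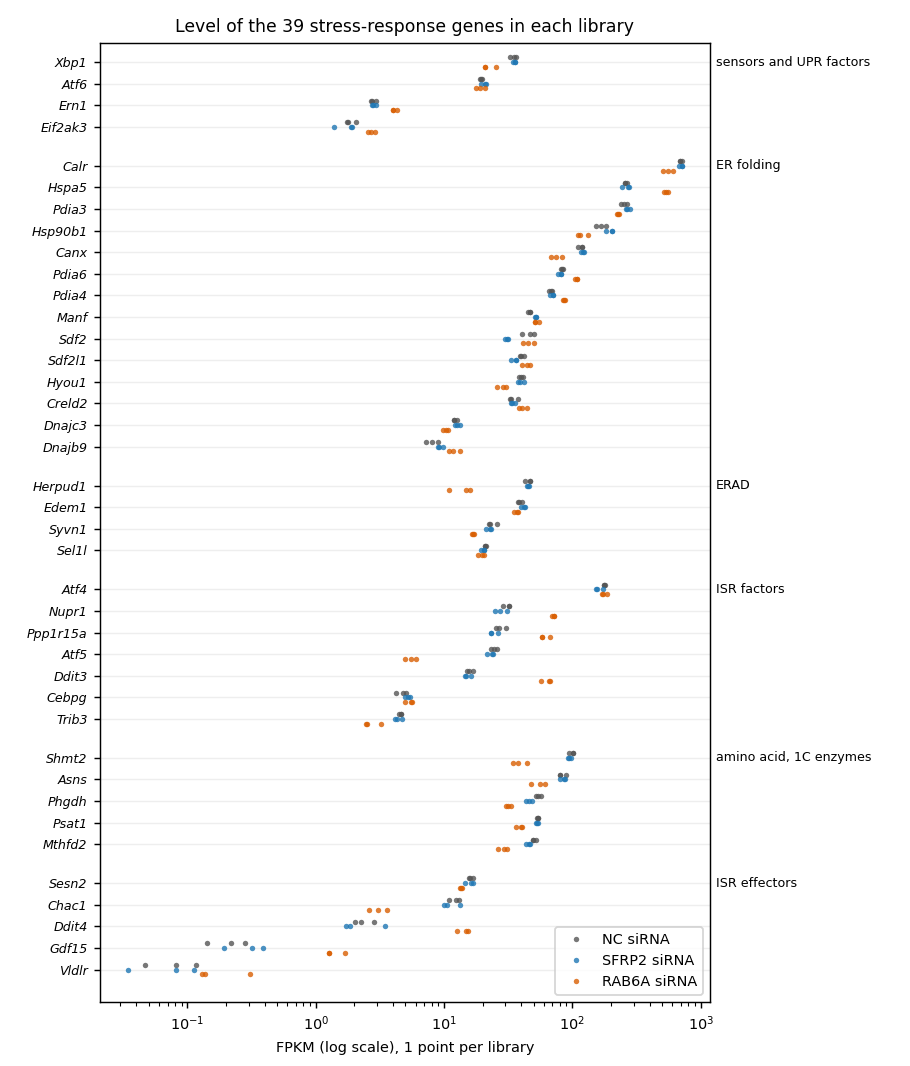
FPKM (log scale) of the 39 genes in each of 9 libraries, 1 point per library, with genes ordered by role and by their NC level. NC (grey) and SFRP2 siRNA (blue) points lie close together along the figure, from 0.0814 FPKM (Vldlr, NC mean) to 701 FPKM (Calr, NC mean), and RAB6A siRNA points (orange) stand apart for genes such as Ddit3, Atf5, Herpud1 and Ddit4.

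Libraries of a group lay close together for most genes of the list. For 37 of them, leaving out Vldlr and Gdf15, the coefficient of variation over 3 libraries had a median of 4.60% in NC, 4.59% in SFRP2 siRNA and 7.77% in RAB6A siRNA. The highest was 41.3% for Ddit4 in SFRP2 siRNA libraries, where 1 library was at 3.46 FPKM and the others at 1.73 and 1.84 FPKM. Exons of 14 of the 39 genes share bases with another gene, most for Sdf2 (16.0% of its exon bases, with the antisense gene Supt6), Hsp90b1 (15.7%) and Ddit3 (10.9%). Whether reads were counted by strand is not given in the sources used here, so the values of these genes are less certain. GENCODE M21 has 1 more identifier named Ddit3, inside the same locus, which is not used here.

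To examine whether SFRP2 siRNA changed the stress response, SFRP2 siRNA libraries were compared with NC libraries. None of the 37 stress genes that passed the filter (mean FPKM of at least 0.5) was called in limma at an adjusted p under 0.05, as was none of 12017 genes (0.0%), where the smallest adjusted p was 0.140. The study reported differentially expressed genes in both directions for SFRP2 siRNA in RAW264.7 cells, from a test on counts. The absence of calls here differs from that, and the cause was not tested. The median log2 change of the 37 genes was -0.01, the same as over all genes (-0.01), and single changes ran from -0.57 to 0.23. At an unadjusted p under 0.05, 3 of the 37 were higher and 5 lower, where 7.73% of all genes were higher and 10.7% lower. The groups did not overlap for 8 of the 37, against 24.7% of all genes, which is close to the background. Of these, 1 was higher and 7 lower, where 1309 of 12017 genes were higher and 1665 lower. That split by direction was not tested. Of the UPR sensors and factors, Xbp1 was at 34.7 ± 1.83 FPKM in NC and 35.5 ± 0.812 in SFRP2 siRNA (n = 3 each), and Hspa5 at 260.4 ± 6.18 and 263 ± 19.0. Ddit3 was at 15.9 ± 0.785 and 15.3 ± 0.840 FPKM. Gdf15 and Vldlr were under the filter, and exact two-sided permutation tests of their FPKM gave p = 0.3 and 0.8 (3 libraries against 3).

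Sdf2 (chr11:78245746-78255496), an ER protein of the stromal-derived factor family that works with ER HSP40 chaperones, had the smallest unadjusted p of the list. Its levels were 50.4, 40.2 and 46.7 FPKM in NC and 31.5, 31.0 and 29.6 FPKM in SFRP2 siRNA libraries. The SFRP2 libraries were all lower than every other library, RAB6A siRNA ones included (40.9, 50.3 and 44.8 FPKM). The log2 difference from NC was -0.57 ± 0.08 (SE), 1.48-fold, with an adjusted p of 0.149 in limma. With limma-voom on reads recovered from the FPKM values Sdf2 was called (adjusted p = 0.0183), 1 of 41 genes called by that method. Its paralog Sdf2l1, an ER stress-inducible cofactor of the same kind, was at 39.6, 39.4 and 41.9 FPKM in NC and 36.5, 33.4 and 36.4 FPKM in SFRP2 siRNA (log2 difference -0.18 ± 0.05, adjusted p = 0.185). Phgdh, the entry enzyme of serine synthesis, was at 57.3, 52.3 and 54.2 FPKM in NC and 48.3, 43.9 and 45.6 FPKM in SFRP2 siRNA (-0.25 ± 0.06, adjusted p = 0.171). All 3 of these genes were lower in each SFRP2 library than in each NC library, without passing the adjusted threshold in limma.

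On the higher side, Manf, a secreted ER stress-inducible protein, was at 45.4, 46.7 and 46.5 FPKM in NC and 50.7, 51.7 and 51.9 FPKM in SFRP2 siRNA (0.15 ± 0.04, adjusted p = 0.178 in limma). It was the only gene of the list whose SFRP2 libraries were all above the NC libraries. Hsp90b1 was at 153, 183 and 167 FPKM in NC against 182, 203 and 202 FPKM (0.23 ± 0.08, adjusted p = 0.211), and the IRE1-binding cochaperone Dnajb9 at 8.99, 8.02 and 7.26 against 9.16, 8.96 and 9.78 FPKM (0.20 ± 0.08, adjusted p = 0.266), with overlap in both. Across 11903 genes the change under SFRP2 siRNA ran against GC content (Spearman's rho -0.482 across genes, which are not independent replicates), against 0.0785 under RAB6A siRNA. After a correction of each library for GC content and gene length, the median of the 37 genes was 0.03 and Sdf2 was at -0.51 (adjusted p = 0.203). The differences of Phgdh (-0.12), Sdf2l1 (-0.08), Dnajb9 (0.10) and Hsp90b1 (0.14) were smaller with it, and that of Manf was 0.21 (none of them called). Without NC replicate 3 Dnajb9 was at 0.13.

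RAB6A siRNA libraries were then compared with NC libraries. Under RAB6A siRNA, 13 of the 38 stress genes tested were higher and 17 lower at an adjusted p under 0.05 in limma, and 8 were not called. The change was wide over all genes as well: 37.6% of 12712 genes were higher and 36.5% lower, so the share of stress genes called is near the background. The median log2 change was -0.09 for the 38 genes and 0.03 for all genes. DEGs, which also had an absolute log2 change over 1, were 6 higher (Ddit4, Gdf15, Ddit3, Nupr1, Ppp1r15a and Hspa5) and 4 lower (Atf5, Chac1, Herpud1 and Shmt2), where 17.3% of all genes were higher DEGs and 12.8% lower ones. The groups did not overlap for 33 of the 38, against 77.4% of all genes. Gdf15, also among the 33, passed the filter only through its RAB6A libraries and so had to differ. Without it 12 of 37 genes were higher and 5 were higher DEGs. With the correction for GC content and length 16 of the 38 were higher and 15 lower, and with quantile normalization 14 and 19, so that the balance of higher and lower genes depended on the processing. The median log2 change of all genes moved as well, from 0.03 to 0.09 with the correction and to -0.02 with quantile normalization. Shares of all genes by direction under these settings are not given, so nothing particular to the stress genes is read from these counts.

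**Figure D2:**
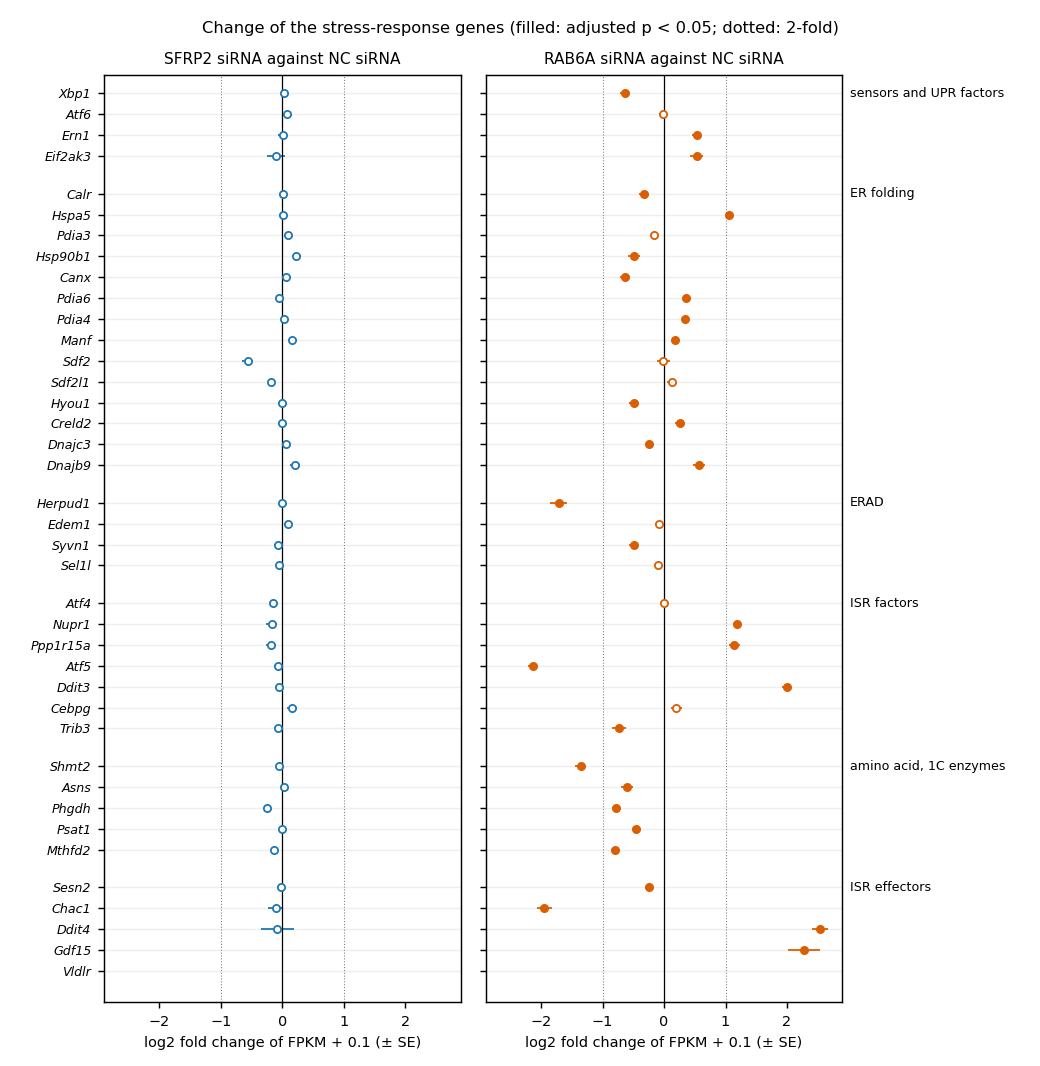
Log2 fold change of FPKM + 0.1 (± SE) of each gene against NC, for SFRP2 siRNA (left) and RAB6A siRNA (right), with 3 libraries in each group. On the left no gene passed an adjusted p under 0.05 (all open) and the changes lie between -0.57 and 0.23. On the right filled points run from -2.14 (Atf5) to 2.54 (Ddit4). The filled point of Gdf15 on the right passed the filter only through its RAB6A libraries. Genes without a point were not tested.

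Of the sensors and UPR transcription factors, 2 were higher, 1 lower and 1 not called, where 37.6% of all genes were higher and 36.5% lower. Xbp1 was at 32.8, 35.1 and 36.4 FPKM in NC and at 20.97, 21.04 and 25.3 FPKM in RAB6A siRNA libraries, 1.55-fold lower (log2 change -0.63 ± 0.09, adjusted p = 3.51e-04). Every RAB6A library was below every NC library. Ern1 was at 2.71, 2.74 and 2.94 FPKM in NC and at 3.97, 4.31 and 3.98 FPKM in RAB6A siRNA (0.53 ± 0.08, adjusted p = 5.12e-04), and Eif2ak3 at 2.04, 1.76 and 1.77 and at 2.899, 2.71 and 2.56 FPKM (0.53 ± 0.10, adjusted p = 0.00213). With the correction for GC content and length Eif2ak3 was at 0.81. Thus mRNA of IRE1 and PERK rose without overlap between groups, while that of XBP1, whose mRNA IRE1 splices, fell. Atf6 was at 19.2, 19.6 and 19.3 FPKM in NC and at 17.7, 19.2 and 20.7 FPKM in RAB6A siRNA, with a log2 difference of -0.02 ± 0.07 (adjusted p = 0.850). Its direction depended on the processing, and with the correction for GC content and length Atf6 was at 0.26 (adjusted p = 0.00376).

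Of the 14 ER chaperones and folding factors 6 were higher, 5 lower and 3 not called, close to the shares over all genes (37.6% higher and 36.5% lower). Hspa5 (chr2:34771970-34777547) changed most, from 257, 268 and 257 FPKM in NC to 519, 536 and 561 FPKM in RAB6A siRNA, 2.07-fold higher (1.05 ± 0.06, adjusted p = 5.42e-06). Canx fell from 119, 119 and 111 FPKM to 67.7, 74.8 and 82.6 FPKM, 1.55-fold (-0.64 ± 0.08, adjusted p = 2.42e-04). Dnajb9 rose from 8.99, 8.02 and 7.26 FPKM to 10.97, 11.8 and 13.4 FPKM (0.57 ± 0.10, adjusted p = 0.00157). In all 3 the groups were apart. Hsp90b1, which usually rises with Hspa5 in the UPR, fell from 153, 183 and 167 FPKM to 111, 114 and 132 FPKM (-0.49 ± 0.09, adjusted p = 0.00202). Hyou1, a large HSP70-related chaperone and exchange factor of Hspa5, fell by 0.49 ± 0.07 on the log2 scale. The disulfide isomerases Pdia6 (0.36 ± 0.05) and Pdia4 (0.35 ± 0.05) rose, and Manf (0.18 ± 0.05) and Creld2 (0.25 ± 0.08), another secreted ER stress-inducible protein, were higher by less. Manf was at 0.46 with the correction for GC content and length (adjusted p = 1.11e-04), at 0.33 with quantile normalization, and lost its call without NC replicate 1 (0.16, adjusted p = 0.0694). Creld2 lost it without NC replicate 1 or 2 or without RAB6A siRNA replicate 1 or 2 (adjusted p = 0.0502 to 0.0777).

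Calr fell by 0.33 ± 0.08 on the log2 scale, from 693, 715 and 696 FPKM to 510.3, 560.0 and 606 FPKM (adjusted p = 0.00636), and its libraries are given as the highest gene of the list. Dnajc3, an HSP40 that also inhibits eIF2 kinases, fell by 0.25 ± 0.06. Pdia3 at -0.16 ± 0.06 (adjusted p = 0.0506), Sdf2l1 at 0.12 ± 0.07 and Sdf2 at -0.01 ± 0.11 were not called. Pdia3 was called with a pseudocount of 0.01, in a single fit of all 9 libraries and with voom (adjusted p = 0.0495, 0.0315 and 0.0459). Without NC replicate 3 Pdia3 was called as well (-0.20, adjusted p = 0.0403), as was Sdf2l1 without RAB6A siRNA replicate 3 (0.18, adjusted p = 0.0234). Several of these smaller changes depended on the correction for GC content and length: with it Calr was at -0.08 (not called), Dnajc3 at 0.06, Creld2 at -0.03 and Pdia3 at 0.14 (none of them called), and Sdf2l1 at -0.34 (adjusted p = 3.80e-04). Hspa5 (1.38), Pdia6 (0.68), Dnajb9 (0.68), Pdia4 (0.54), Canx (-0.35), Hyou1 (-0.26) and Hsp90b1 (-0.21) kept their direction and their call. Quantile normalization gave 0.45 for Hspa5 (adjusted p = 0.00101), under the limit for DEGs, as well as -0.86 for Calr and 0.41 for Creld2. It also called Pdia3 at -0.52 (adjusted p = 4.51e-04) and Sdf2l1 at 0.29 (adjusted p = 0.00599), opposite in sign to the GC-corrected values, so that no direction is given for these 2 genes.

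The summed FPKM of the 14 folding genes was 1851, 1924 and 1857 in NC, 1933, 1953 and 1868 in SFRP2 siRNA and 1854, 1949.6 and 2033 in RAB6A siRNA libraries, and these ranges overlap. Its makeup differed, as Calr held 37.4% of the sum in NC and 28.7% in RAB6A siRNA. The ratio of Hspa5 to Calr, chosen after the values were seen and given with no test, was 0.371 ± 0.00257 in NC, 0.374 ± 0.0163 in SFRP2 siRNA and 0.967 ± 0.0460 in RAB6A siRNA (SD, n = 3). That of Hspa5 to Hsp90b1 was 1.56 ± 0.111, 1.35 ± 0.165 and 4.54 ± 0.260. Of the 8 genes with an ERSE in their promoter, 3 were higher under RAB6A siRNA (Hspa5, Pdia6 and Creld2) and 5 lower (Canx, Syvn1, Hsp90b1, Calr and Dnajc3). Over all genes 37.6% were higher and 36.5% lower, and Creld2, Calr and Dnajc3 were not called with the correction for GC content and length, so nothing particular to these genes is read from the counts.

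Of the 4 genes of ER-associated degradation (ERAD), which returns misfolded proteins to the cytosol for the proteasome, 2 were lower and 2 not called. Lower calls made up 36.5% of all genes. Herpud1 (chr8:94386438-94395377), a scaffold of the ERAD ligase complex, fell from 46.6, 42.5 and 46.7 FPKM in NC to 10.9, 16.0 and 14.8 FPKM in RAB6A siRNA, 3.28-fold (-1.71 ± 0.14, adjusted p = 2.10e-05). Syvn1, the ligase HRD1, fell from 22.8, 22.4 and 25.8 FPKM to 16.4, 16.7 and 17.0 FPKM (-0.50 ± 0.07, adjusted p = 3.61e-04). Both had an ERSE or ERSE-II in the promoters printed above. Sel1l, the partner of HRD1, was at -0.10 ± 0.06 and the mannosidase-like Edem1 at -0.08 ± 0.06 (adjusted p = 0.146 and 0.212). With the correction for GC content and length these turned to 0.17 (adjusted p = 0.0138) and 0.23 (adjusted p = 0.00457), and with quantile normalization to 0.02 and 0.09, so that no direction is given for them.

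**Figure D3:**
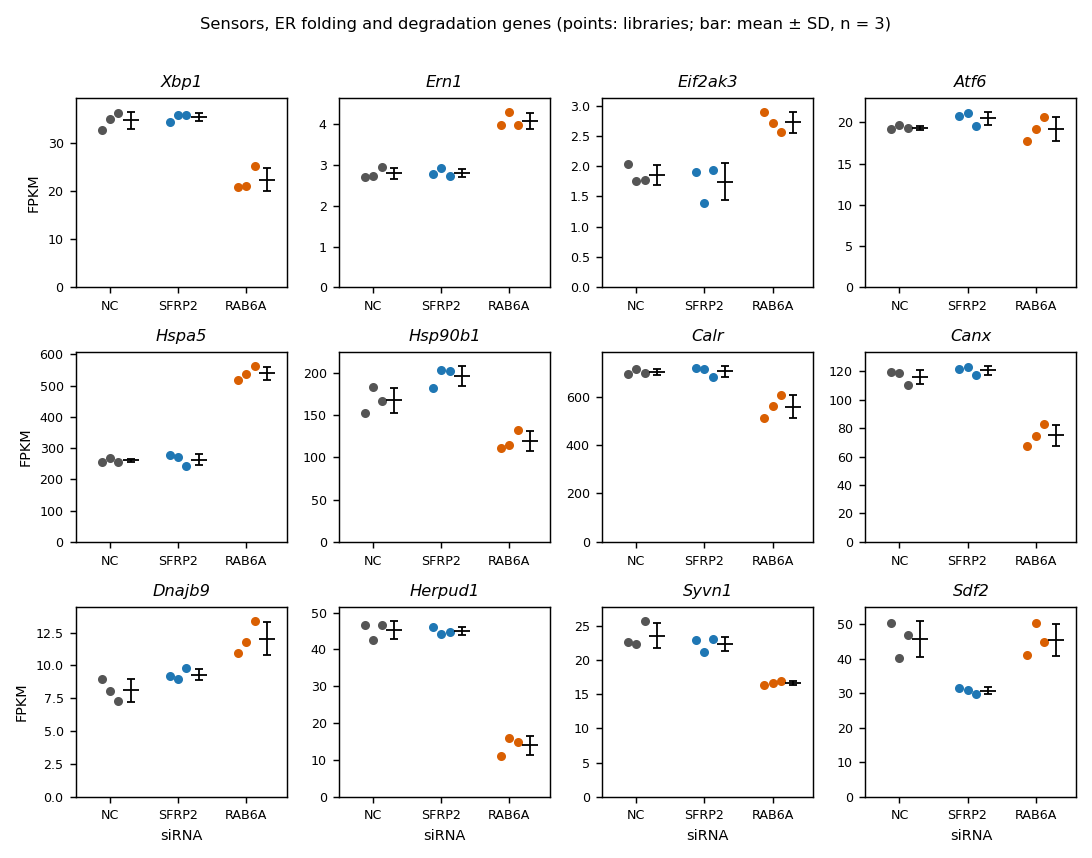
FPKM of 12 genes of sensing, ER folding and degradation in each library (points) with the mean ± SD (n = 3) of NC, SFRP2 siRNA and RAB6A siRNA groups, each axis starting at 0. Hspa5 rose to 519 to 561 FPKM under RAB6A siRNA while Hsp90b1, Calr, Canx, Herpud1 and Syvn1 fell, and Sdf2 was lowest under SFRP2 siRNA (29.6 to 31.5 FPKM).

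Of the ISR transcription factors and regulators, 3 were higher, 2 lower and 2 not called under RAB6A siRNA. The shares over all genes were 37.6% higher and 36.5% lower. Atf4 itself was at 176, 177 and 178 FPKM in NC, 172, 156 and 153 FPKM in SFRP2 siRNA and 170.4, 187 and 174 FPKM in RAB6A siRNA libraries. NC and RAB6A siRNA libraries overlapped, with a log2 difference of -0.00 ± 0.06 (adjusted p = 0.976), and the sign changed with the scaling: it was 0.00 with median-of-ratios scaling and -0.22 with quantile normalization (adjusted p = 0.00674). SFRP2 siRNA libraries were all below NC (-0.14 ± 0.05, adjusted p = 0.241). Cebpg, a C/EBP partner of ATF4, was at 4.78, 5.04 and 4.21 FPKM in NC and 5.50, 5.61 and 4.98 FPKM in RAB6A siRNA (0.20 ± 0.09, adjusted p = 0.0836), and at 0.50 with the correction for GC content and length (adjusted p = 0.00157).

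Ddit3 (CHOP, chr10:127290774-127296288) rose from 15.2, 15.7 and 16.7 FPKM to 57.3, 66.0 and 67.1 FPKM under RAB6A siRNA, 3.98-fold (1.99 ± 0.08, adjusted p = 1.52e-06). Nupr1, a small stress-inducible nuclear protein, rose from 29.0, 32.4 and 32.2 FPKM to 71.8, 71.6 and 69.8 FPKM (1.19 ± 0.06, adjusted p = 3.34e-06). Ppp1r15a (GADD34), the phosphatase subunit that removes phosphate from eIF2, rose from 30.6, 25.2 and 27.0 FPKM to 57.8, 57.7 and 67.4 FPKM (1.14 ± 0.09, adjusted p = 2.41e-05). These 3 genes were at least 1.14 higher on the log2 scale, with the groups apart, while the Atf4 libraries of NC and RAB6A siRNA overlapped. Atf5 (chr7:44812256-44816658), a factor whose translation is controlled like that of Atf4, fell from 25.6, 24.5 and 23.1 FPKM to 4.97, 6.01 and 5.48 FPKM, 4.39-fold (-2.14 ± 0.08, adjusted p = 1.54e-06). Trib3, a pseudokinase induced by ATF4 and CHOP that feeds back on both, fell from 4.65, 4.45 and 4.65 FPKM to 2.51, 3.23 and 2.47 FPKM (-0.73 ± 0.11, adjusted p = 6.52e-04). The ratio of Ddit3 to Atf5, chosen after the values were seen, was 0.652 ± 0.0674 in NC, 0.664 ± 0.0808 in SFRP2 siRNA and 11.6 ± 0.629 in RAB6A siRNA.

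The 5 amino acid and one-carbon enzymes of the list, which ATF4 is known to induce, were all lower under RAB6A siRNA, where 36.5% of all genes were. Shmt2, the mitochondrial serine hydroxymethyltransferase, fell from 101, 93.5 and 102 FPKM to 34.4, 37.7 and 44.1 FPKM (-1.36 ± 0.09, adjusted p = 1.18e-05). Mthfd2, the next mitochondrial folate enzyme, fell from 52.1, 49.2 and 49.3 FPKM to 26.3, 29.5 and 31.1 FPKM (-0.79 ± 0.07, adjusted p = 4.19e-05). Phgdh fell from 57.3, 52.3 and 54.2 FPKM to 30.5, 33.3 and 31.3 FPKM (-0.78 ± 0.06, adjusted p = 1.88e-05). No RAB6A library reached an NC library in any of these genes. Asparagine synthetase, Asns, fell from 80.8, 88.6 and 79.7 FPKM to 48.0, 55.9 and 60.7 FPKM (-0.60 ± 0.09, adjusted p = 6.75e-04), and the serine enzyme Psat1 by 0.46 ± 0.06 on the log2 scale. With the correction for GC content and length Mthfd2 was at -0.49 and Asns at -0.36, both still called, and Psat1 at -0.13 (adjusted p = 0.0534). The summed FPKM of the 5 enzymes was 340.1 ± 3.42 in NC, 324 ± 0.946 in SFRP2 siRNA and 193 ± 16.2 in RAB6A siRNA (SD, n = 3).

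The effector genes split into both directions. Ddit4 (REDD1, chr10:59949669-59951834) rose from 2.03, 2.27 and 2.87 FPKM to 12.5, 15.5 and 14.7 FPKM, 5.80-fold (2.54 ± 0.14, adjusted p = 4.26e-06), and 5.00% of the genes tested changed by more. Gdf15 was at 0.143, 0.218 and 0.279 FPKM in NC and 1.26, 1.70 and 1.27 FPKM in RAB6A siRNA, on 77 to 119 reads in the latter. It was called in limma, but passed the filter only through its RAB6A libraries, so its values are given as a description. Chac1, a glutathione-degrading enzyme that is induced by ATF4 and CHOP, fell from 10.9, 12.4 and 13.1 FPKM to 3.06, 2.62 and 3.60 FPKM, 3.85-fold (-1.95 ± 0.12, adjusted p = 8.16e-06). Sesn2, a leucine sensor upstream of mTORC1, fell by 0.25 ± 0.05 on the log2 scale, from 15.7, 16.0 and 16.7 FPKM to 13.6, 13.2 and 13.8 FPKM (-0.14 with quantile normalization, adjusted p = 0.0449). Vldlr was under the filter, at 0.0812, 0.0463 and 0.117 FPKM in NC and 0.137, 0.310 and 0.130 FPKM in RAB6A siRNA. An exact two-sided permutation test of Vldlr gave p = 0.1, the smallest that 3 libraries against 3 allow. Of the 6 genes with a CARE, Nupr1 was higher, Chac1, Herpud1, Trib3 and Asns were lower, and Vldlr was not tested in limma. Shares over all genes were 37.6% higher and 36.5% lower, and the difference of these genes from them was not tested.

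**Figure D4:**
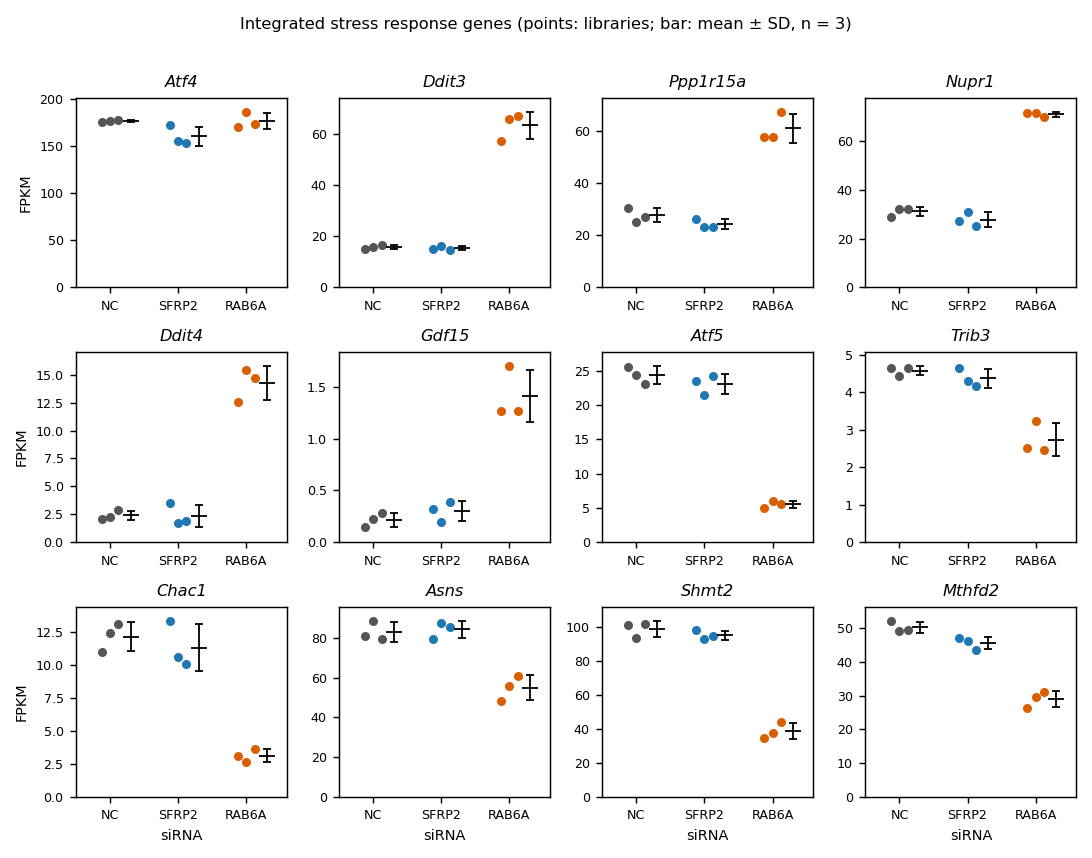
FPKM of 12 ISR genes in each library (points) with the mean ± SD (n = 3) of NC, SFRP2 siRNA and RAB6A siRNA groups, each axis starting at 0. The Atf4 points of NC and RAB6A siRNA overlap, Ddit3, Ppp1r15a, Nupr1, Ddit4 and Gdf15 stood higher under RAB6A siRNA, and Atf5, Trib3, Chac1, Asns, Shmt2 and Mthfd2 stood lower.

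RAB6A siRNA and SFRP2 siRNA libraries were also compared directly, since both comparisons with NC share the NC libraries. Of the 38 stress genes tested, 14 were higher and 19 lower in RAB6A siRNA at an adjusted p under 0.05 in limma, against 37.6% and 35.8% of 12764 genes, again near the background. With the correction for GC content and length 17 were higher and 15 lower. The median of all genes moved from 0.03 to 0.10 with it, and their shares by direction under it are not given. Gdf15, at a mean of 0.301 FPKM in SFRP2 siRNA and 1.41 FPKM in RAB6A siRNA, is counted among the 14 higher genes. It passed the filter only through its RAB6A libraries and so had to differ. Ddit3 was 4.14-fold higher (2.05 ± 0.08), Hspa5 2.05-fold higher (1.03 ± 0.08) and Ddit4 6.14-fold higher (2.62 ± 0.25), while Atf5 was 4.16-fold lower (-2.06 ± 0.09). The adjusted p-values of these 4 ran from 2.56e-06 (Ddit3) to 7.14e-05 (Ddit4). Sdf2 was higher in RAB6A siRNA by 0.55 ± 0.08 on the log2 scale (adjusted p = 6.32e-04), its SFRP2 siRNA libraries being the lowest of all 9. Atf4 at 0.14 ± 0.07 (adjusted p = 0.103) and Manf at 0.02 ± 0.05 (adjusted p = 0.716) did not pass the threshold, and the sign of Atf4 turned with quantile normalization (-0.15). With quantile normalization Hspa5 was at 0.31 (adjusted p = 0.00816). Sdf2l1 at 0.31 ± 0.07 (adjusted p = 0.00767) turned to -0.24 with the correction for GC content and length (adjusted p = 0.00421). No direction is given for it.

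The other genes of these pathways were read from lists of 97 genes, of which 93 passed the filter in RAB6A siRNA against NC. They were read under the main setting only, so how far their calls depend on the processing was not examined. In that comparison 27 were higher and 44 lower, where 37.6% and 36.5% of all genes were, and their median log2 change was -0.12 (0.03 over all genes). SFRP2 siRNA against NC gave 0 calls among the genes of these lists that were tested, with 6 higher and 16 lower at an unadjusted p under 0.05 (7.73% and 10.7% of all genes). Of 19 genes of eIF2 kinases, eIF2, eIF2B and UPR processing, 5 were higher and 10 lower under RAB6A siRNA, with a median of -0.59. The eIF2 kinase GCN2, Eif2ak4, which senses uncharged tRNA, rose from a mean of 6.00 to 12.5 FPKM (1.05), and the kinase PKR, Eif2ak2, which senses double-stranded RNA and is induced by interferon, fell from 51.2 to 18.6 FPKM (-1.45). The stress kinase Map3k5 (1.32) and the ER-bound factor Creb3l2 (1.23) were higher, and Eif2s3x, a subunit of eIF2, lower (-1.09). Eif2b1, a subunit of the exchange factor eIF2B, fell from 19.5 to 9.71 FPKM. The log2 changes of all pathway genes named here and below had an adjusted p of at most 3.29e-04 (Creb3l2).

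Of 22 other ER folding factors 5 were higher, 9 lower and 8 not called (median -0.07). Sil1, the exchange factor of BiP, rose from 3.91 to 10.5 FPKM (1.40), the oxidase Ero1l from 25.2 to 48.4 FPKM (0.94) and the disulfide isomerase P4hb from 215 to 372 FPKM (0.79), while Tmx1 (-1.11), Calu (-0.81) and Dnajc10 (-0.56) fell. Of 20 other ERAD genes 8 were higher and 6 lower (median 0.03), led by the mannosidase-like Edem2, which rose from 10.7 to 32.3 FPKM (1.59), and by Selenos, which fell from 55.6 to 25.2 FPKM (-1.14). Ngly1 (0.99) and Os9 (0.75) were higher, and Nploc4 (-0.97) and Vcp (-0.61), which extract proteins from the ER membrane, were lower. Neither list moved 1 way, where 37.6% of all genes were higher and 36.5% lower.

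Of 17 other amino acid and one-carbon genes of the ATF4 response, 15 were lower, 1 higher (Got1, 0.62) and 1 not called, with a median of -0.61. The cytosolic hydroxymethyltransferase Shmt1 fell from a mean of 11.9 to 2.63 FPKM (-2.13). The arginine and lysine transporter Slc7a1 fell from 23.1 to 6.19 FPKM (-1.89) and the cystine transporter Slc7a11 from 13.9 to 3.68 FPKM (-1.88). Lower calls made up 36.5% of all genes in the same comparison, and the difference of the amino acid genes from that share was not tested. The correction for GC content and length, which made changes of some listed enzymes smaller, was not examined for these genes. Of 15 other stress factors and effectors, 8 were higher and 4 lower (median 0.46), where 37.6% and 36.5% of all genes were. Bbc3 (PUMA), a death-promoting BCL2 family member, rose from 8.19 to 69.6 FPKM (3.06), Klhl24 from 1.58 to 11.6 FPKM (2.80) and Crebrf from 1.39 to 4.99 FPKM (1.77). The ATF3-related factor Jdp2 fell from 137 to 25.4 FPKM (-2.44), the tRNA exporter Xpot from 34.6 to 11.4 FPKM (-1.60) and the secreted glycoprotein Stc2 from 6.51 to 3.47 FPKM (-0.89).

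**Figure D5:**
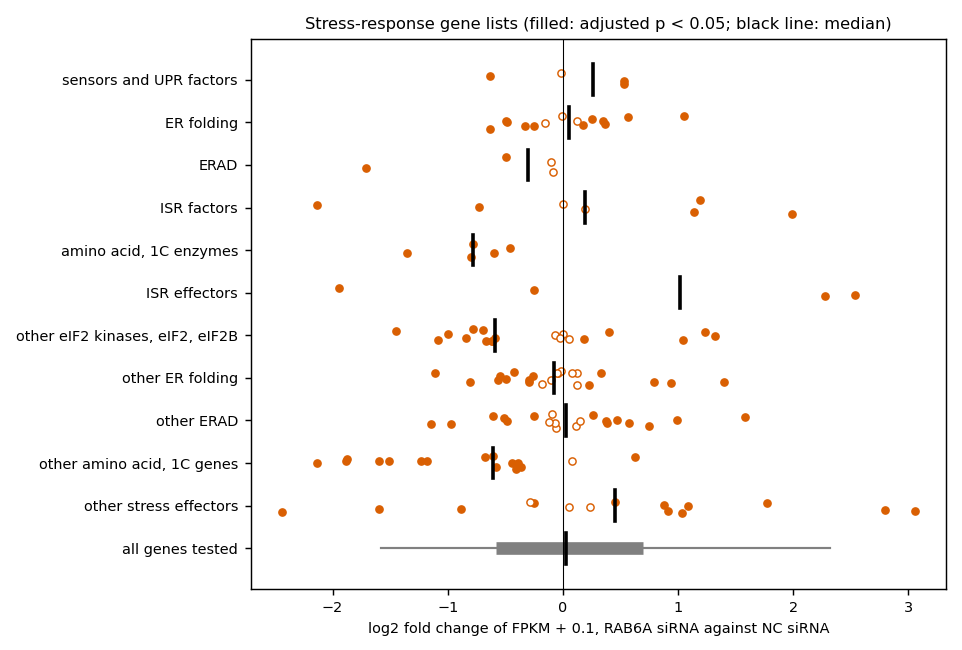
Log2 fold change of FPKM + 0.1 for RAB6A siRNA against NC, 1 point per gene (filled: adjusted p under 0.05), for the 6 role groups of the 39 genes and the 5 lists of other pathway genes, with the median as a black line. The bottom row shows all genes tested, with a thick bar from -0.58 to 0.70 (the quartiles) and a thin line from -1.58 to 2.32 (the 5th to the 95th percentile). The 5 amino acid and one-carbon enzymes all lie below 0, as do 15 of 17 other genes of that kind and the 4 ERAD genes of the list (2 of them called). The ERAD genes not called, Sel1l and Edem1, changed sign with the correction for GC content and length and with quantile normalization. The other lists hold points on both sides.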

How the data were processed

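RNA was sequenced from RAW264.7 cells under NC, SFRP2 or RAB6A siRNA (3 libraries each). The authors deposited FPKM values per Ensembl gene for all 9 libraries, and the submitters' notes name HISAT2, Subread and featureCounts. Versions and genome build are not given in the sources used here. The column of every library was mapped from its title, with 0 columns unmapped. The study's methods name a test on counts calling genes at an adjusted p under 0.05 and DEGs at a log2 change beyond 1 either way. These limits were kept, but the values are FPKM, so log2(FPKM + 0.1) was tested, which understates changes of low genes. FPKM values times exon length gave whole reads within 0.03 of a read for 27083 genes (98.4%), and recovered totals were 28744260 to 43951880 reads per library.

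For each comparison of 6 libraries, genes averaging 0.5 FPKM or more were fitted with limma 3.58.1 (R 4.3.3, trend) and adjusted over all genes by the Benjamini-Hochberg method. The script was tested on simulated data. An exact two-sided permutation test was used under the filter. GENCODE M21 named 27533 genes and left 604 unnamed, and gave coordinates (GRCm38). Promoters came from RefSeq (GRCm38.p6). The 39 genes and all lists were chosen with earlier results of these data known. All 39 genes could be named. Values of each library were given for the sensors and transcription factors, for up to 4 called genes of each role with the largest changes under RAB6A siRNA, and for the 3 genes with the smallest p in each direction under SFRP2 siRNA. Of each other pathway list, the 3 called genes with the largest change in each direction were named. Those of Calr and Vldlr were added after their values were seen. The alternatives were pseudocounts of 1 and 0.01, no filter or a filter at 1 FPKM, median-of-ratios and quantile scaling, no trend, a replicate block, a GC content and length correction (a spline with 5 degrees of freedom), all 9 libraries in a single fit, voom on recovered reads and leaving out each library. Python 3.11.15, pandas 2.3.3 and scipy 1.17.1 were used.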

Additional observations from a re-analysis of the deposited data

How the results depend on the processing

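For the single stress genes followed, 936 values under alternative settings kept their direction and their side of the threshold. Another 13 passed it in addition, 10 lost it and 30 changed sign. All stress genes tested were followed only in RAB6A siRNA against NC. In SFRP2 siRNA against NC only Sdf2, Sdf2l1, Phgdh, Manf, Hsp90b1 and Dnajb9 were, and in RAB6A siRNA against SFRP2 siRNA only a chosen part. Genes not followed, among them ones with very small changes, are missing from these counts, which therefore do not describe all stress genes. For medians and counts, 207 alternative values were within the limits set for a change and 9 were not. The cause of these changes was not tested. With the correction for GC content and length, alone or with the replicate block, the median log2 change of the stress genes was 0.027 in SFRP2 siRNA against NC, -0.020 in RAB6A siRNA against NC and 0.033 in RAB6A siRNA against SFRP2 siRNA. Over all genes it was -0.0055, 0.088 and 0.097 in the same order. For SFRP2 siRNA against NC, voom called 41 genes and 1 lower stress gene (Sdf2), and leaving out a library gave 0 to 1 genes, the 1 call coming without NC replicate 1.

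Changes of sign in genes that were not followed are not known. Among the genes followed, signs that changed were those of log2 changes of at most 0.31 either way under the main setting. Some of these had been called there: Dnajc3 and Creld2 in RAB6A siRNA against NC, and Sdf2l1 in RAB6A siRNA against SFRP2 siRNA. Sdf2l1 was called in limma with the opposite sign after the correction for GC content and length (adjusted p = 0.00421). In RAB6A siRNA against NC, the correction for GC content and length, alone or with the block, gave 0.26 for Atf6, 0.14 for Pdia3, 0.23 for Edem1, 0.064 for Dnajc3, 0.17 for Sel1l, -0.034 for Creld2 and -0.34 for Sdf2l1. Quantile normalization gave 0.093 for Atf6, 0.088 for Edem1, 0.14 for Sdf2 and 0.020 for Sel1l, and median-of-ratios scaling 0.0050 for Atf4. Leaving out a library gave -0.10 to 0.061 for Sdf2, -0.042 to 0.025 for Atf4 and -0.071 to 0.041 for Atf6. In RAB6A siRNA against SFRP2 siRNA, Atf4 was at -0.15 with quantile normalization, Sdf2l1 at -0.24 with the correction, alone or with the block, and Manf at -0.014 to 0.043 when a library was left out, negative without RAB6A siRNA replicate 3.

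Replicate numbers did not pair the libraries (correlations of same-numbered deviations from -0.085 to 0.048). With the replicate block 12 stress genes were higher and 17 lower in RAB6A siRNA against NC, Creld2 losing its call (adjusted p = 0.0550), 14 and 18 in RAB6A siRNA against SFRP2 siRNA, and 0 and 0 in SFRP2 siRNA against NC. Leaving out each library left 11 to 14 higher (Gdf15 included) and 17 to 18 lower in RAB6A siRNA against NC, with 8807 to 9267 of all genes called. Shares of all genes by direction are not given for the block or without a library. With 3 libraries a group, small changes and genes at few reads (Gdf15, Vldlr, Sfrp2) were the least certain.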
